A study of Arabidopsis thaliana with 12 samples.

Results

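J-domain proteins, also called DnaJ or HSP40 proteins, were followed in Arabidopsis seedlings after heat. The members were the rows of the expression table whose description held the words DnaJ or J-domain, leaving out AT3G08970. This rule took 88 of 32833 rows. Of these, 69 had an RPKM (reads scaled to the length of the gene model and to the library total) of at least 1 in at least 3 of the 12 libraries, and these 69 were tested among 17628 genes. The rule goes by wording, so genes with a J domain under another description were not analysed here. Of the 69, 43 were named only as J-domain family proteins and 4 were described as chloroplastic. AT3G47650 and AT5G17840 were taken by the cysteine-rich zinc-finger domain of DnaJ, and their RefSeq annotation names no J domain.

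J-domain proteins are the partners that direct HSP70 chaperones: the J domain binds HSP70, stimulates its ATP hydrolysis and so lets HSP70 close on the client protein that the J-domain protein brings. Class A members resemble bacterial DnaJ with a zinc-finger domain, class B members lack the zinc finger, and class C members share only the J domain. Cytosol, plastids, mitochondria and endoplasmic reticulum each have their own HSP70 and J-domain sets, and some are induced when heat shock factors bind repeated GAA units, the heat shock element, upstream of a gene.

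Poly(A) RNA was taken from whole Col-0 seedlings of Arabidopsis thaliana aged 10 days. There were 4 groups of 3 libraries: atdamt1 after 2.5 h of heat, atdamt1 in control, wild type (WT) after 2.5 h of heat, and WT in control. The series concerns METTL4, an adenine methyltransferase, and thermotolerance. The labels give neither the temperature nor the kind of mutant allele. They time every control at 0 h, with none kept unheated for 2.5 h, so heat and elapsed time cannot be told apart. Whether the 3 libraries of a group were grown separately is not stated, and the p-values then reflect only their spread, part of which may be technical.

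Depth was 21720000 to 23519000 reads per library. AT1G19340, the METTL4 homolog, had 0.475, 0.146 and 0.404 RPKM in atdamt1 heat against 1.3, 1.33 and 1.54 RPKM in WT heat, and 0.808, 0.913 and 1.29 RPKM in atdamt1 control against 2.5, 3.01 and 3.1 RPKM in WT control, so the genotypes did not overlap. The leaf genes LHCB1.1 and RBCS-1A and the root genes SCR and BGLU23 (PYK10) were detected in all 12 libraries, as whole seedlings contain. SCR had 1.56 to 2.02 RPKM in atdamt1 heat against 9.46 to 10.3 RPKM in atdamt1 control, and 1.65 to 2.35 RPKM in WT heat against 8.43 to 12 RPKM in WT control. BGLU23 stood lower too, at 346 ± 26.4 RPKM in atdamt1 heat against 1561 ± 400 RPKM in atdamt1 control, and 314 ± 125 RPKM in WT heat against 1818 ± 245 RPKM in WT control (SD, n = 3). LHCB1.1 stood higher, at 4452 ± 636 RPKM in atdamt1 heat against 762 ± 128 RPKM in atdamt1 control, and 4520 ± 384 RPKM in WT heat against 932 ± 157 RPKM in WT control. RBCS-1A stood lower, at 11522 ± 278 RPKM in atdamt1 heat against 17919 ± 1224 RPKM in atdamt1 control, and 11569 ± 685 RPKM in WT heat against 15375 ± 1942 RPKM in WT control. The part of these markers in the members' changes was not tested. In bulk RNA, fewer cells of a type and less RNA per cell cannot be told apart. Chloroplast-encoded genes took 3.17% to 6.01% of the RPKM sum in atdamt1 heat, 0.32% to 0.979% in atdamt1 control, 0.39% to 4.05% in WT heat and 0.394% to 1.07% in WT control. The strand setting of the counting is not given in the sources used here, and 28 of the 69 genes overlap an annotated gene on the opposite strand, so their values can hold reads of that partner.

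The windows upstream of 4 heat-raised members are shown because their letters differ in what the heat shock element calls for. Each is the 250 bases before the RefSeq gene start on TAIR10.1, printed in the direction of the gene, and all 4 genes lie on the minus strand. Capitals mark every stretch that matches GAANNTTC or TTCNNGAA, the 2-unit form; the 3-unit form is GAANNTTC followed by NNGAA, or TTCNNGAA followed by NNTTC. Each pair of patterns is its own reverse complement, so both strands were read.
AT1G71000, chr1:26770178-26770427: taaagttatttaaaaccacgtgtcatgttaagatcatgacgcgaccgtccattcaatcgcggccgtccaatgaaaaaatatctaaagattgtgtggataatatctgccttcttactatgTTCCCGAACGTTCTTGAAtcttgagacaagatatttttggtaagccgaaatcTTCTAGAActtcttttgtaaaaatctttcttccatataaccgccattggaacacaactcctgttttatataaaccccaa
AT1G72416, chr1:27260522-27260771: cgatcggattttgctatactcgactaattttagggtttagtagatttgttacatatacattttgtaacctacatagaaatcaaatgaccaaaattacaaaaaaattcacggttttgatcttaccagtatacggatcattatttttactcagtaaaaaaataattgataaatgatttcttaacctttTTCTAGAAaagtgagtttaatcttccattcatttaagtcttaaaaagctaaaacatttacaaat
AT3G44110 (ATJ3), chr3:15871257-15871506: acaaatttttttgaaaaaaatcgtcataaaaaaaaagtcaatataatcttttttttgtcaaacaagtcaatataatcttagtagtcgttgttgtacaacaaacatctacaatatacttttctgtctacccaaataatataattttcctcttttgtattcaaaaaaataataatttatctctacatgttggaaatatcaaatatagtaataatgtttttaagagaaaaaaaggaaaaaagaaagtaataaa
AT1G80920 (ATJ8), chr1:30404714-30404963: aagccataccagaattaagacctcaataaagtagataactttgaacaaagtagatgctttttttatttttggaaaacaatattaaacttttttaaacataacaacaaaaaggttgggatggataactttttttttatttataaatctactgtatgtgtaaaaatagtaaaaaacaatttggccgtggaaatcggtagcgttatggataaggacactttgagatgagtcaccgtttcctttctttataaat

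The window of AT1G71000 held TTCCCGAACGTTCTTGAA, in which both 3-unit patterns overlap, at -131 to -114 from the gene start, and a further TTCTAGAA at -79 to -72. The same letters TTCTAGAA stood at -64 to -57 of AT1G72416. The windows of ATJ3 and ATJ8, and that of AT3G14200, held no match. The 3-unit form was present in 106 of 27443 windows of protein-coding genes (0.386%), in 74 of 17230 windows of genes tested (0.429%) and in 1 of 69 member windows, that of AT1G71000. The 2-unit form was common, with 16.1% of all protein-coding windows, 15.6% of those tested and 9 of 69 member windows (13%). It stood in 2 of 9 windows of members that rose in atdamt1 and in 6 of 45 that fell (22.2% and 13.3%). In WT these were 3 of 11 and 5 of 41 (27.3% and 12.2%). A match describes letters and is not shown to be a binding site.

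The members that led the summed level differed between heat and control. Added over the 69 tested members, RPKM came to 1856 ± 194 in atdamt1 heat against 1313 ± 31.2 in atdamt1 control, and to 2061 ± 310 in WT heat against 1286 ± 55.9 in WT control (SD, n = 3). ATJ8, a small chloroplast J protein, made up 31.7% of this sum in atdamt1 heat against 4.53% in atdamt1 control, and 24.5% in WT heat against 4.82% in WT control. The cytosolic class A gene ATJ3 held 14.6% in atdamt1 heat against 10% in atdamt1 control, and 17.4% in WT heat against 11% in WT control. AT3G47650, the chloroplast cysteine-rich protein that led in controls, held 9.95% in atdamt1 heat against 22.6% in atdamt1 control, and 10.3% in WT heat against 20.5% in WT control. The sum thus stood higher after heat although most members stood lower.

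In atdamt1, 9 of the 69 members tested rose with heat, 45 fell and 15 were not called (limma, Benjamini-Hochberg adjusted p below 0.05 over all genes tested). Of all 17628 genes, 10.3% rose and 56.2% fell in this comparison, against 13% and 65.2% of the members, and 66.5% were called in either direction, against 54 of the 69 members. In WT, 11 members rose, 41 fell and 17 were not called, or 15.9% and 59.4%, against 9.41% and 52.6% of all genes, and 52 were called in either direction, against 62% of all genes. The members' shares were thus near those of all genes. Their median log2 change was -0.53 in atdamt1 and -0.51 in WT, beside -0.44 and -0.41 for all genes. At an unadjusted p below 0.05 these were 57 members in atdamt1 (69.5% of all genes) and 54 in WT (65.7% of all genes). Every heat library lay above every control library for 10 members in atdamt1 and below for 47 (11.4% and 58.6% of all genes), and in WT above for 11 and below for 44 (11% and 56% of all genes). At least 2-fold on the log2(RPKM + 1) scale, 5 members rose and 15 fell in atdamt1, beside 4.4% and 17.3% of all genes, and 6 rose and 13 fell in WT, beside 3.53% and 16.8% of all genes.

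The median gene itself stood lower after heat, and the count of falls depended on the scaling. Under median-of-ratios scaling, which brings the median of all genes to 0.01 in both genotypes, 17 members rose and 22 fell in atdamt1 (27.5% and 27.2% of all genes), and 18 rose and 22 fell in WT (28.7% and 26.7%). Under quantile normalization 15 rose and 22 fell in atdamt1 (23% and 29.4%), and 16 rose and 21 fell in WT (22.7% and 26.5%). Calls that held as deposited and under both of these scalings were 9 rises and 18 falls in atdamt1 (10.2% and 24.7% of all genes), and 11 rises and 19 falls in WT (9.23% and 22% of all genes). With the chloroplast share in the model, 6 rose and 25 fell in atdamt1 (5.54% and 25.5% of all genes), and 10 rose and 40 fell in WT (9.47% and 49.4% of all genes). Among named members this ended the atdamt1 calls of AT1G21080, AT2G38000, AT5G18140, ATJ1, ATJ13, ATJ39, AT3G47650, AT5G03030, AT5G17840, AT5G59610 and AT1G65280 (adjusted p = 0.0799 to 0.909, limma) and the WT calls of AT3G47650 (adjusted p = 0.0848, limma) and AT5G16650 (adjusted p = 0.0522, limma).

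The genotypes share no heat or control library, and their member calls read side by side as follows. 9 members rose in both, 37 fell in both, and 0 were called in opposite directions, beside 7.73%, 48.2% and 0.00567% of all genes. The 2 that rose in WT and were not called in atdamt1 were ATJ10 and AT5G16650. A further 4 fell in WT without a call in atdamt1, 8 fell in atdamt1 without a call in WT, and 9 were called in neither. The difference between the heat responses was tested for each member, as given further on.

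**Figure D1:**
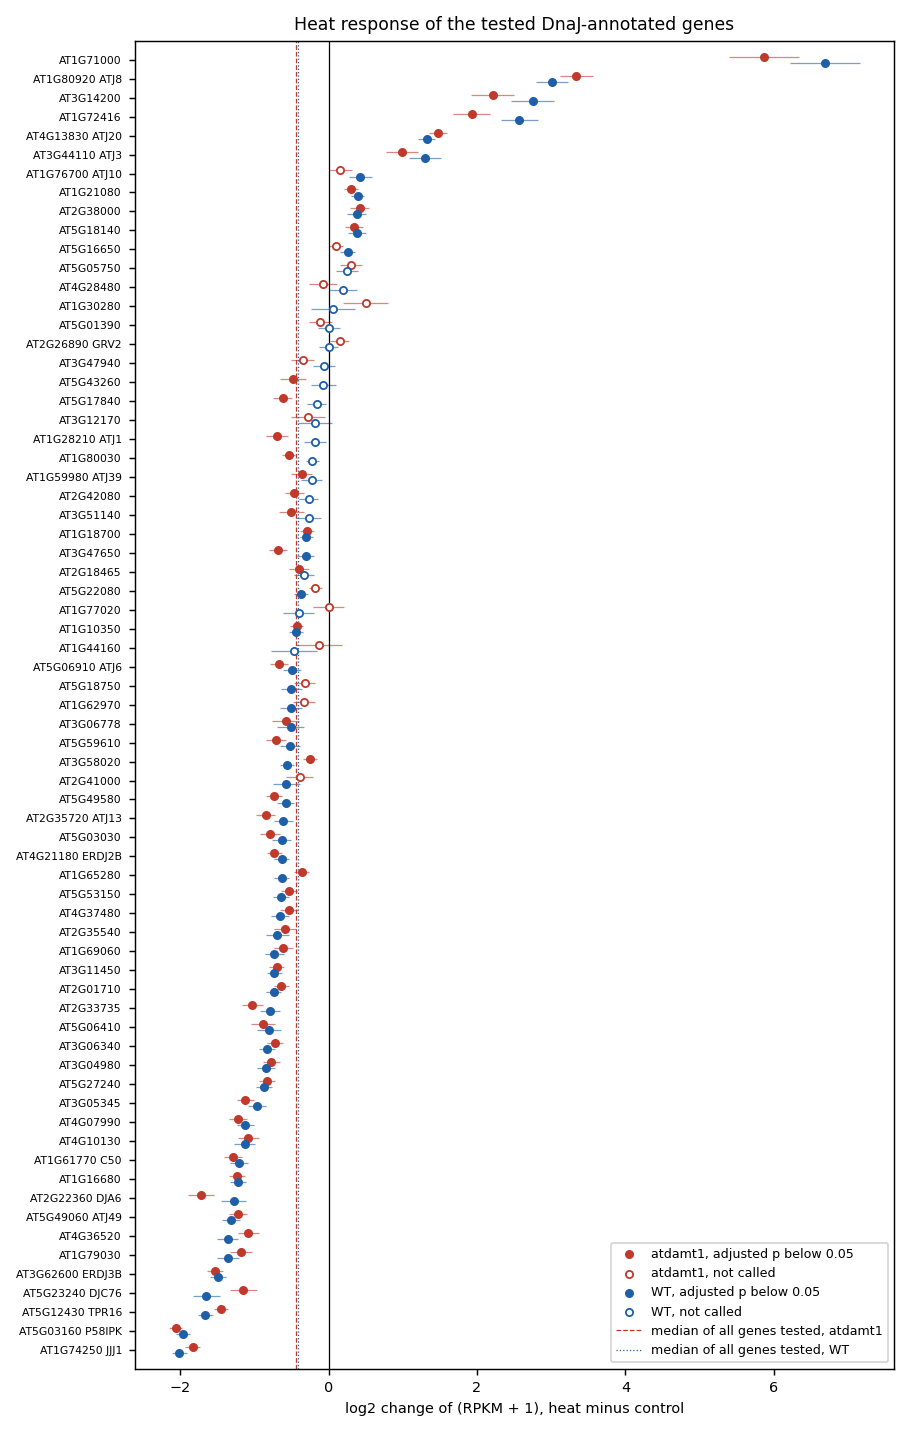
Log2 change of RPKM + 1, heat minus control, on the horizontal axis for each of the 69 tested members (rows), in atdamt1 (red) and WT (blue) with standard errors; filled points passed adjusted p below 0.05 and vertical lines mark the median of all genes, -0.44 in atdamt1 and -0.41 in WT. AT1G71000 stands alone at 5.87 in atdamt1 and 6.69 in WT, 5 further genes lie between 0.99 and 3.34, and the longest falls end at -2.06.

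AT1G71000, described only as a chaperone DnaJ-domain superfamily protein, had the largest rise. It had 95.8, 213 and 49.4 RPKM in atdamt1 heat against 0.677, 1.15 and 0.462 RPKM in atdamt1 control, and 353, 121 and 145 RPKM in WT heat against 1.16, 0.455 and 0.839 RPKM in WT control. Every heat library lay far above every control library, and among the heat libraries the values differed 7.15-fold. The ratio of means was 156 in atdamt1 and 253 in WT. These ratios rest on few control reads, 19, 31 and 12 in atdamt1 and 30, 12 and 22 in WT. On the log2(RPKM + 1) scale, which understates changes of low genes, the change was 5.87 ± 0.47 in atdamt1 (SE, adjusted p = 1.44e-06, limma). In WT it was 6.69 ± 0.47 (adjusted p = 6.04e-07, limma). The gene has 3 exon blocks and spans chr1:26768792-26770177 on the minus strand of TAIR10.1.

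AT3G14200 and AT1G72416 carry the same family description, and RefSeq names AT3G14200 as the closest Arabidopsis protein to AT1G72416. AT3G14200 had 91.2, 153 and 59.1 RPKM in atdamt1 heat against 19, 24 and 16.4 RPKM in atdamt1 control, and 183, 105 and 121 RPKM in WT heat against 18, 19.7 and 18.8 RPKM in WT control. AT1G72416 had 63.4, 86.1 and 42.9 RPKM in atdamt1 heat against 14.7, 17 and 14.8 RPKM in atdamt1 control, and 129, 64.3 and 88.7 RPKM in WT heat against 13.3, 14.8 and 15.1 RPKM in WT control. Heat and control libraries did not overlap for either gene. Log2 changes of AT3G14200 were 2.21 ± 0.29 in atdamt1 (SE, adjusted p = 4.98e-05, limma) and 2.75 ± 0.29 in WT (adjusted p = 1.03e-05, limma). Those of AT1G72416 were 1.93 ± 0.25 (adjusted p = 4.4e-05, limma) and 2.57 ± 0.25 (adjusted p = 5.87e-06, limma).

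ATJ3 is a farnesylated cytosolic class A protein with the zinc finger, and was the only class A member the rule took and tested for the cytosol. It had 247, 366 and 199 RPKM in atdamt1 heat against 128, 139 and 129 RPKM in atdamt1 control, and 474, 289 and 316 RPKM in WT heat against 147, 137 and 142 RPKM in WT control. The control libraries lay close together, and each heat library lay above all of them. The log2 change was 0.99 ± 0.21 in atdamt1 (SE, adjusted p = 0.00152, limma) and 1.30 ± 0.21 in WT (adjusted p = 0.000235, limma).

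**Figure D2:**
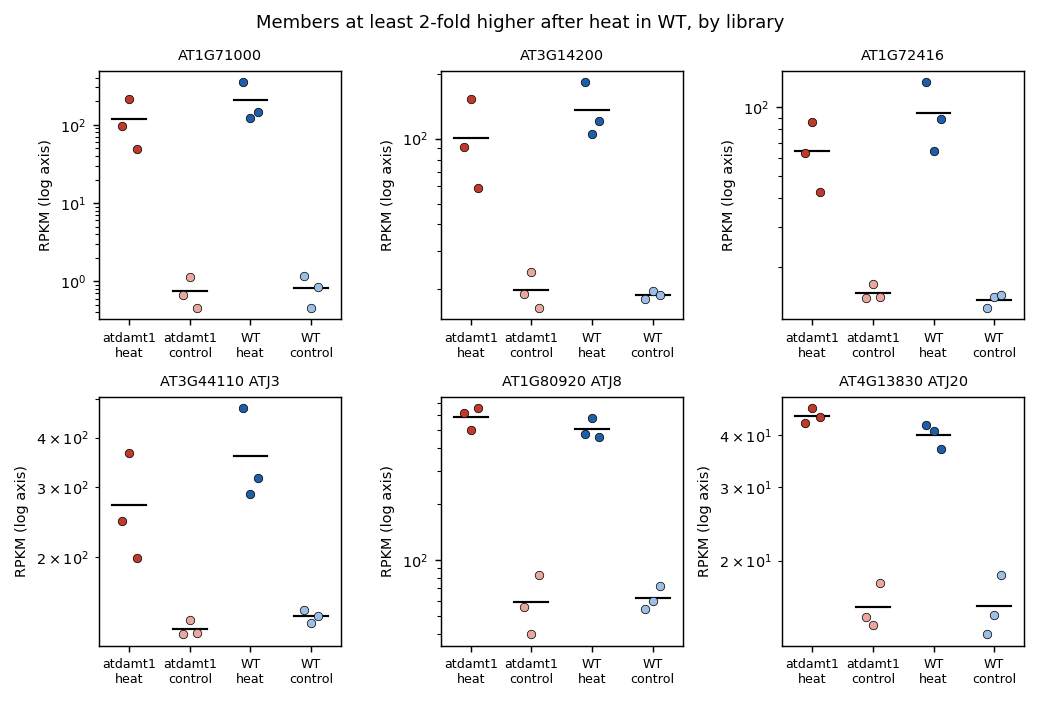
RPKM on a logarithmic axis for the 6 members that rose at least 2-fold in WT, with 1 point per library and a bar at the mean of 3, in atdamt1 heat, atdamt1 control, WT heat and WT control. Heat and control libraries are apart in each panel; the heat libraries spread widely for AT1G71000 (49.4 to 353 RPKM) and little for ATJ20 (37 to 46.4 RPKM).

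The class B genes mostly gave no call on the values as deposited, and some rose under the other scalings. Their list was set by locus. The description of AT1G44160 in it names only HSP40/DnaJ peptide binding, so the class of that gene is not shown here. AT1G44160 was named after its values were seen. Of 8 members in that list, 5 were tested, AT1G44160 among them, and in each genotype 1 fell, 0 rose and 4 were not called. The fall was that of AT1G10350 (-0.43 ± 0.09 in atdamt1 and -0.44 ± 0.09 in WT), named after its values were seen, and it was not called under either other scaling. The median log2 change of the list was -0.13 in atdamt1 and -0.06 in WT, beside -0.44 and -0.41 for all genes. Under median-of-ratios scaling 1 of the 5 rose and 0 fell in atdamt1, and 2 rose and 0 fell in WT. Under quantile normalization 1 rose and 0 fell in atdamt1, and 3 rose and 0 fell in WT. Of all genes, 22.7% to 28.7% rose and 26.5% to 29.4% fell under these 2 scalings. AT4G28480, the member of this list with the highest level, had 19.6, 26.9 and 19 RPKM in atdamt1 heat against 22.3, 24.5 and 21.7 RPKM in atdamt1 control. In WT it had 40.1, 22.9 and 24.9 RPKM in heat against 25.7, 23.7 and 25.2 RPKM in control, so heat replicate 1 stood apart and the other heat libraries lay within or below the control range. AT5G01390 averaged 5.24 ± 0.276 RPKM in atdamt1 heat against 5.77 ± 0.983 RPKM in atdamt1 control, and 6.15 ± 0.971 RPKM in WT heat against 6.1 ± 1.1 RPKM in WT control (SD, n = 3). It was not called as deposited, but was called higher under both other scalings in atdamt1 (0.35 and 0.38) and in WT (0.45 and 0.50), as was AT4G28480 in WT (0.68 and 0.44).

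Of the 6 plastid J-domain genes tested, ATJ8 and ATJ20 rose in both genotypes. The others fell, all 4 in atdamt1 and 3 in WT, where 56.2% and 52.6% of all genes fell. Under each of the other scalings 2 fell in each genotype, DJA6 and DJC76, beside 26.5% to 29.4% of all genes. The falls of AT1G80030 in atdamt1 (-0.54) and of AT5G59610 in atdamt1 (-0.71) and WT (-0.52) were lost there, and AT1G80030 in WT, not called as deposited (-0.22), was called higher under median-of-ratios scaling (0.28, adjusted p = 0.0265, limma). Both of these genes were named after their values were seen. ATJ8 had 614, 498 and 655 RPKM in atdamt1 heat against 55.7, 39.6 and 83.2 RPKM in atdamt1 control, and 478, 581 and 457 RPKM in WT heat against 54, 60.1 and 72.1 RPKM in WT control. It was thus the most abundant member after heat in RPKM, and its lowest heat library exceeded its highest control library several times over. The log2 change was 3.34 ± 0.22 in atdamt1 (SE, adjusted p = 4.11e-07, limma) and 3.01 ± 0.22 in WT (adjusted p = 8.51e-07, limma). The 4 heat libraries with the highest ATJ8 levels were the 4 with the highest chloroplast-encoded share; with that share in the model the changes were 2.99 in atdamt1 and 2.93 in WT, and both stayed called. ATJ8 overlaps AT1G80910 on the opposite strand.

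ATJ20 is the chloroplast J protein that brings the isoprenoid enzyme deoxyxylulose phosphate synthase to HSP70. It had 42.8, 46.4 and 44.1 RPKM in atdamt1 heat against 14.6, 14 and 17.7 RPKM in atdamt1 control, and 42.2, 40.9 and 37 RPKM in WT heat against 13.3, 14.8 and 18.5 RPKM in WT control. Heat libraries of both genotypes lay close together, above all controls. The log2 change was 1.47 ± 0.12 in atdamt1 (SE, adjusted p = 1.9e-06, limma) and 1.32 ± 0.12 in WT (adjusted p = 4.31e-06, limma).

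DJA6, a chloroplast class A protein that acts in iron-sulfur cluster assembly, had 10.1, 15.2 and 11.7 RPKM in atdamt1 heat against 44.9, 45.3 and 37.7 RPKM in atdamt1 control, and 16.9, 12.7 and 14.5 RPKM in WT heat against 43.7, 30.3 and 37.8 RPKM in WT control. It fell by 1.72 ± 0.17 in atdamt1 (SE, log2, adjusted p = 4.97e-06, limma) and by 1.28 ± 0.17 in WT (adjusted p = 4.63e-05, limma). DJC76, annotated to the chloroplast, had 28.5, 36.7 and 38 RPKM in atdamt1 heat against 86.9, 58.3 and 89.3 RPKM in atdamt1 control, and 21.3, 22.1 and 20.5 RPKM in WT heat against 61.4, 62.1 and 86 RPKM in WT control. It fell by 1.15 ± 0.18 in atdamt1 (adjusted p = 0.000162, limma) and by 1.65 ± 0.18 in WT (adjusted p = 1.18e-05, limma). Neither gene had a heat library within its control range, and both falls held under all 3 scalings.

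The cysteine-rich gene AT3G47650 had the highest RPKM of any member in controls. It had 181, 201 and 172 RPKM in atdamt1 heat against 302, 318 and 271 RPKM in atdamt1 control, and 227, 198 and 210 RPKM in WT heat against 299, 224 and 267 RPKM in WT control. Heat and control were apart in atdamt1 and overlapped in WT. It fell by 0.68 ± 0.12 in atdamt1 (SE, log2, adjusted p = 0.000375, limma) and by 0.31 ± 0.12 in WT (adjusted p = 0.0415, limma). Both calls were lost under median-of-ratios scaling (-0.15 in atdamt1 and 0.21 in WT). The WT call was also lost without any of WT heat replicates 2 or 3, WT control replicates 1 or 3, atdamt1 heat replicate 1 or atdamt1 control replicate 1, at -0.21 to -0.31.

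All 3 tested members of the endoplasmic reticulum list fell in both genotypes, beside 56.2% of all genes in atdamt1 and 52.6% in WT. Their median log2 change was -1.53 in atdamt1 and -1.49 in WT, beside -0.44 and -0.41 for all genes. P58IPK, a J protein of the lumen that works with the HSP70 BiP and whose mammalian counterpart inhibits stress kinases, had 3.35, 3.36 and 3.21 RPKM in atdamt1 heat against 16.3, 17.8 and 16.7 RPKM in atdamt1 control. In WT it had 4.32, 3.87 and 4.38 RPKM in heat against 19.4, 20.8 and 17.4 RPKM in control. ERDJ3B, which acts with BiP in the quality control of membrane receptors, had 13, 13.7 and 15.1 RPKM in atdamt1 heat against 41.2, 47.4 and 38.4 RPKM in atdamt1 control, and 17.3, 14.2 and 16.5 RPKM in WT heat against 47.1, 50.5 and 42.1 RPKM in WT control. For both genes the heat libraries lay tightly together, far below the controls.

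P58IPK fell by 2.06 ± 0.09 in atdamt1 (SE, log2, adjusted p = 3.01e-08, limma) and by 1.96 ± 0.09 in WT (adjusted p = 3.92e-08, limma), the longest fall of any tested member in atdamt1. ERDJ3B fell by 1.53 ± 0.11 in atdamt1 (adjusted p = 7.35e-07, limma) and by 1.49 ± 0.11 in WT (adjusted p = 9.65e-07, limma). ERDJ2B, a SEC63 homolog of the protein translocon, averaged 3.73 ± 0.515 RPKM in atdamt1 heat against 6.8 ± 0.571 RPKM in atdamt1 control, and 4.55 ± 0.196 RPKM in WT heat against 7.57 ± 0.117 RPKM in WT control (SD, n = 3). It fell by 0.73 ± 0.10 in atdamt1 (adjusted p = 7.61e-05, limma) and by 0.63 ± 0.10 in WT (adjusted p = 0.000236, limma). The ERDJ2B calls were lost under quantile normalization in both genotypes (adjusted p = 0.0663 in atdamt1 and 0.341 in WT), and in WT under median-of-ratios scaling (adjusted p = 0.146). C50, annotated to the endoplasmic reticulum outside this list, fell by 1.29 ± 0.12 in atdamt1 (adjusted p = 3.2e-06, limma) and by 1.21 ± 0.12 in WT (adjusted p = 5.15e-06, limma).

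**Figure D3:**
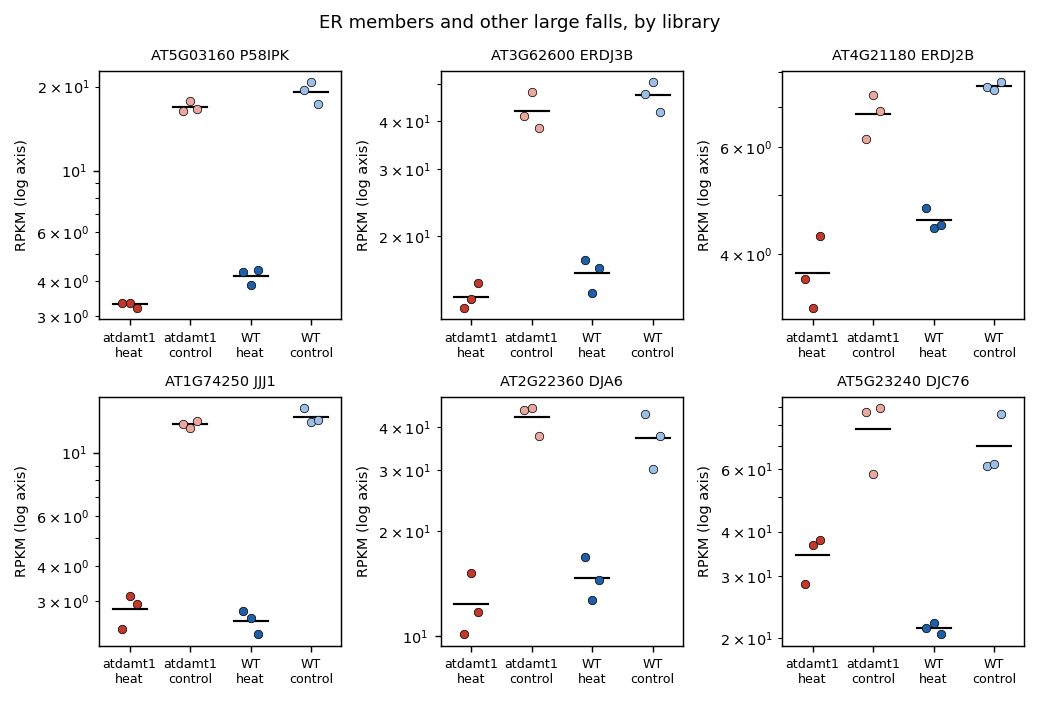
RPKM on a logarithmic axis for the 3 endoplasmic reticulum members and for JJJ1, DJA6 and DJC76, with 1 point per library and a bar at the mean of 3, in atdamt1 heat, atdamt1 control, WT heat and WT control. Every heat library lies below every control library of its genotype; P58IPK falls to 3.3 RPKM on average in atdamt1 heat, against 16.9 RPKM in atdamt1 control.

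The 3 mitochondrial members fell in atdamt1, and 2 of them fell in WT, beside 56.2% and 52.6% of all genes. AT5G06410, annotated with the Hsc20 co-chaperone domain of iron-sulfur cluster assembly, averaged 4.52 ± 0.932 RPKM in atdamt1 heat against 9.14 ± 1.77 RPKM in atdamt1 control, and 4.45 ± 0.585 RPKM in WT heat against 8.5 ± 1.04 RPKM in WT control (SD, n = 3). AT5G03030 averaged 14.1 ± 2.51 RPKM in atdamt1 heat against 24.8 ± 1.36 RPKM in atdamt1 control, and 15.8 ± 1.76 RPKM in WT heat against 25 ± 2.94 RPKM in WT control. Neither overlapped its controls, yet no call of either gene held under all 3 scalings. ATJ1, a class A protein of mitochondria, had 1.69, 2.12 and 1.21 RPKM in atdamt1 heat against 2.88, 3.79 and 3.27 RPKM in atdamt1 control. Its log2 change there was -0.70 ± 0.15 (adjusted p = 0.00139, limma). Adjusted p in limma was 0.0742 under median-of-ratios scaling and 0.221 under quantile normalization. In WT it had 3.09, 2.2 and 2.4 RPKM in heat against 3.31, 3 and 2.79 RPKM in control (-0.18 ± 0.15, adjusted p = 0.301, limma), and these overlapped.

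JJJ1, whose yeast counterpart acts in the maturation of the large ribosomal subunit, had 2.4, 3.14 and 2.93 RPKM in atdamt1 heat against 12.6, 12.2 and 12.9 RPKM in atdamt1 control, and 2.77, 2.62 and 2.3 RPKM in WT heat against 14.3, 12.8 and 13 RPKM in WT control. Heat libraries lay far below controls in both genotypes, and JJJ1 fell by 1.83 ± 0.10 in atdamt1 (SE, log2, adjusted p = 1.2e-07, limma) and by 2.01 ± 0.10 in WT (adjusted p = 5.85e-08, limma). AT3G11450, a zuotin-related protein with DnaJ and Myb-like domains, averaged 14.6 ± 1.21 RPKM in atdamt1 heat against 24.4 ± 0.989 RPKM in atdamt1 control, and 15.2 ± 0.969 RPKM in WT heat against 25.9 ± 2.6 RPKM in WT control (SD, n = 3). It was called lower in both (-0.70 and -0.73), but in atdamt1 not under median-of-ratios scaling (adjusted p = 0.0764). TPR16, a J protein with tetratricopeptide repeats, averaged 1.91 ± 0.234 RPKM in atdamt1 heat against 6.93 ± 0.573 RPKM in atdamt1 control, and 1.82 ± 0.0717 RPKM in WT heat against 7.91 ± 0.489 RPKM in WT control. It fell by 1.45 ± 0.10 in atdamt1 (adjusted p = 4.96e-07, limma) and by 1.66 ± 0.10 in WT (adjusted p = 2.2e-07, limma).

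The auxilin-like list, whose type members help HSP70 strip clathrin from vesicles, held 2 members tested. AT4G36520 fell by 1.08 ± 0.14 in atdamt1 (SE, log2, adjusted p = 4.55e-05, limma) and by 1.36 ± 0.14 in WT (adjusted p = 8.65e-06, limma). AT1G30280 had 10.5, 8.61 and 10.5 RPKM in atdamt1 heat against 8.77, 8.04 and 4.05 RPKM in atdamt1 control, and 5.65, 10 and 6.64 RPKM in WT heat against 6.26, 11.2 and 4.57 RPKM in WT control, and was not called as deposited; in atdamt1 it was called higher under median-of-ratios scaling (0.98) and quantile normalization (0.95). In both genotypes its heat and control libraries overlapped. GRV2, an endosomal J protein needed for shoot gravitropism, averaged 6.16 ± 0.743 RPKM in atdamt1 heat against 5.48 ± 0.811 RPKM in atdamt1 control, and 6.81 ± 0.725 RPKM in WT heat against 6.79 ± 0.726 RPKM in WT control (SD, n = 3), with no call as deposited; under median-of-ratios scaling and quantile normalization it was called higher in atdamt1 (0.61 and 0.63) and in WT (0.45 and 0.49).

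ATJ13 (OWL1), known for the response to very low light, fell by 0.85 ± 0.13 in atdamt1 (SE, log2, adjusted p = 0.000174, limma) and by 0.61 ± 0.13 in WT (adjusted p = 0.0019, limma), and the WT call was lost under median-of-ratios scaling (adjusted p = 0.321) and quantile normalization (adjusted p = 0.437). ATJ39 (ARL2), known for root gravitropism, was called lower in atdamt1 (-0.36 ± 0.14, adjusted p = 0.041, limma) and not in WT (-0.23 ± 0.14, adjusted p = 0.171, limma). The ATJ39 call was lost under median-of-ratios scaling (-0.05, adjusted p = 0.786). It was also lost without atdamt1 heat replicate 1 (-0.39) or 3 (-0.25), atdamt1 control replicate 2 (-0.33) or 3 (-0.34), or WT heat replicate 3 (-0.36), with adjusted p of 0.0532 to 0.167 in limma.

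**Figure D4:**
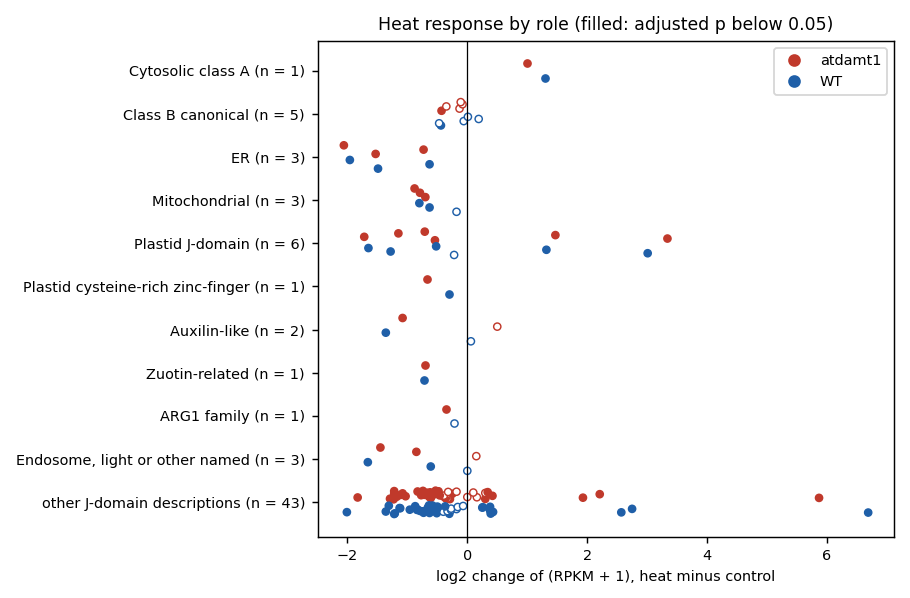
Log2 change of RPKM + 1, heat minus control, on the horizontal axis for the 69 tested members grouped by role (rows, with the number tested), in atdamt1 (red) and WT (blue); filled points passed adjusted p below 0.05. The endoplasmic reticulum genes all lie left of 0, plastid J-domain genes lie on both sides from -1.72 to 3.34, and most class B points are open and near 0.

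The remaining 43 tested members were in no role list, as the lists were set by locus and not by description. In atdamt1, 6 rose, 28 fell and 9 were not called, and in WT 8 rose, 27 fell and 8 were not called. The shares that fell, 65.1% in atdamt1 and 62.8% in WT, stood near the 56.2% and 52.6% of all genes. Under median-of-ratios scaling 11 rose and 13 fell in atdamt1 (27.5% and 27.2% of all genes), and 11 rose and 15 fell in WT (28.7% and 26.7%). Under quantile normalization 9 rose and 12 fell in each, beside 23% and 29.4% of all genes in atdamt1 and 22.7% and 26.5% in WT. Among the falls that held under all 3 scalings in both genotypes, AT1G16680 averaged 2.61 ± 0.333 RPKM in atdamt1 heat against 7.44 ± 0.612 RPKM in atdamt1 control, and 2.67 ± 0.349 RPKM in WT heat against 7.57 ± 0.425 RPKM in WT control (SD, n = 3). AT4G07990 averaged 4.38 ± 0.473 RPKM in atdamt1 heat against 11.6 ± 1.22 RPKM in atdamt1 control, and 4.49 ± 0.712 RPKM in WT heat against 10.9 ± 0.85 RPKM in WT control. AT1G79030 averaged 1.41 ± 0.446 RPKM in atdamt1 heat against 4.46 ± 0.993 RPKM in atdamt1 control, and 1.34 ± 0.157 RPKM in WT heat against 5.02 ± 0.347 RPKM in WT control. All 3 genes had every heat library below every control library.

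The smaller rises had ratios of mean RPKM of 1.21 to 1.41, and several of their calls were lost without 1 library. AT1G21080 had 20.8, 20.6 and 22.5 RPKM in atdamt1 heat against 15.4, 17.5 and 18.5 RPKM in atdamt1 control, and 25, 25.1 and 24.6 RPKM in WT heat against 17.5, 19.9 and 19.1 RPKM in WT control. Its log2 change was 0.30 ± 0.09 in atdamt1 (SE, adjusted p = 0.011, limma; 0.23 and adjusted p = 0.0508 without atdamt1 control replicate 1) and 0.39 ± 0.09 in WT (adjusted p = 0.00265, limma). Heat and control libraries did not overlap in either genotype.

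AT2G38000 rose by 0.42 ± 0.13 in atdamt1 (SE, log2, adjusted p = 0.0117, limma) and by 0.38 ± 0.13 in WT (adjusted p = 0.0203, limma). Its atdamt1 call was lost without atdamt1 control replicate 2 (0.35), and its WT call without WT heat replicate 1 (0.35) or WT control replicate 1 (0.27). AT5G18140 rose by 0.34 ± 0.12 in atdamt1 (adjusted p = 0.0253, limma) and by 0.38 ± 0.12 in WT (adjusted p = 0.0165, limma). Its atdamt1 call was lost without any atdamt1 heat replicate (0.34 to 0.35) or without atdamt1 control replicate 2 (0.21), and its WT call without WT control replicate 2 (0.31). ATJ10 had 12, 14.1 and 11.1 RPKM in atdamt1 heat against 10.8, 10.9 and 11 RPKM in atdamt1 control, and 18.4, 11.6 and 11.4 RPKM in WT heat against 10.1, 9.65 and 9.51 RPKM in WT control. Its WT rise of 0.43 ± 0.15 (adjusted p = 0.0297, limma) was 0.22 (adjusted p = 0.11, limma) without WT heat replicate 1, and was also lost without WT control replicate 2 (0.42) or 3 (0.41). AT5G16650 had 33.7, 28.9 and 29.3 RPKM in atdamt1 heat against 25.1, 31 and 29.8 RPKM in atdamt1 control, which overlapped, and 31.5, 28.8 and 32 RPKM in WT heat against 26, 23.6 and 27 RPKM in WT control, which did not. Its WT rise of 0.26 ± 0.10 (adjusted p = 0.044, limma) was lost without WT heat replicate 1 (0.24) or 3 (0.23), WT control replicate 1 (0.28) or 2 (0.21), or atdamt1 heat replicate 3 (0.26), with adjusted p of 0.0529 to 0.144 in limma. ATJ10 shares a stretch of 200 bases at 92.5% identity with AT1G76720, so its reads may be split between them.

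No member differed between atdamt1 and WT beyond the threshold. AT1G19340, the METTL4 homolog, was not called either, though its genotypes did not overlap in heat or in control. The absence of calls therefore does not show that the members were alike. In heat, 0 of 69 members were called in limma, as were 0% of all genes, and 5 members had an unadjusted p below 0.05, against 7.52% of all genes. In control, 0 members were called (0.0113% of all genes) and 2 had an unadjusted p below 0.05 (4.63% of all genes). In the test of the difference between the heat responses, 0 members were called (0% of all genes) and 5 had an unadjusted p below 0.05 (3.38% of all genes).

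DJC76 had the smallest p in heat, at 28.5, 36.7 and 38 RPKM in atdamt1 heat against 21.3, 22.1 and 20.5 RPKM in WT heat. These did not overlap, and the log2 difference was 0.66 ± 0.18 (SE, adjusted p = 0.654, limma). AT1G65280, with the smallest p in control, had 8.48, 10.7 and 10.6 RPKM in atdamt1 control against 12.3, 11.7 and 11.5 RPKM in WT control, a log2 difference of -0.24 ± 0.10 (adjusted p = 0.935, limma). AT5G17840, the cysteine-rich chloroplast protein with the smallest p for the difference in heat response, had 19.7, 21.9 and 18.7 RPKM in atdamt1 heat against 31.2, 36.6 and 26.8 RPKM in atdamt1 control, and 25.2, 20.2 and 25.4 RPKM in WT heat against 26.3, 27.2 and 25.3 RPKM in WT control. Heat libraries were below control in atdamt1 and overlapped control in WT, and the difference of the log2 responses was -0.46 ± 0.18 (adjusted p = 0.979, limma).

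In heat, 2 members had every atdamt1 library above every WT library, ATJ20 and DJC76, and 5 had every one below: AT1G21080, ATJ1, ERDJ2B, P58IPK and AT5G18140. That is 2.9% and 7.25% of the members, beside 1.74% and 11.7% of all genes. In control, 3 members stood above and 6 below, 4.35% and 8.7%, beside 2.18% and 7.65% of all genes. ERDJ2B was below in both treatments, at 3.64, 3.26 and 4.28 RPKM in atdamt1 heat against 4.77, 4.41 and 4.47 RPKM in WT heat, and at 6.19, 7.32 and 6.88 RPKM in atdamt1 control against 7.54, 7.46 and 7.69 RPKM in WT control.

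The mean of AT1G71000 was 119 ± 84.2 RPKM in atdamt1 heat against 207 ± 128 RPKM in WT heat (SD, n = 3), but the libraries overlapped and the log2 difference of -0.87 ± 0.47 was not called (adjusted p = 0.698, limma). The spread had an order, which was noticed after the values were seen. From high to low, AT1G71000 ran WT replicate 1, atdamt1 replicate 2, WT replicate 3, WT replicate 2, atdamt1 replicate 1 and atdamt1 replicate 3. AT3G14200 and ATJ3 had the same order, while AT1G72416 exchanged the places of atdamt1 replicate 2 and WT replicate 3. The same order was also that of AT2G33735, called lower after heat in both genotypes, and of AT4G28480, called in neither as deposited. Of all genes tested, 241 (1.37%) had this order. ATJ8 and ATJ20 did not: ATJ8 was highest in atdamt1 replicates 3 and 1, where AT1G71000 was lowest, and ATJ20 differed only 1.25-fold between its highest and lowest heat library. Chloroplast-encoded share was 6.01%, 3.17% and 5.58% in atdamt1 heat replicates 1 to 3, and 0.628%, 4.05% and 0.39% in those of WT. Its part in the order was not tested.

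**Figure D5:**
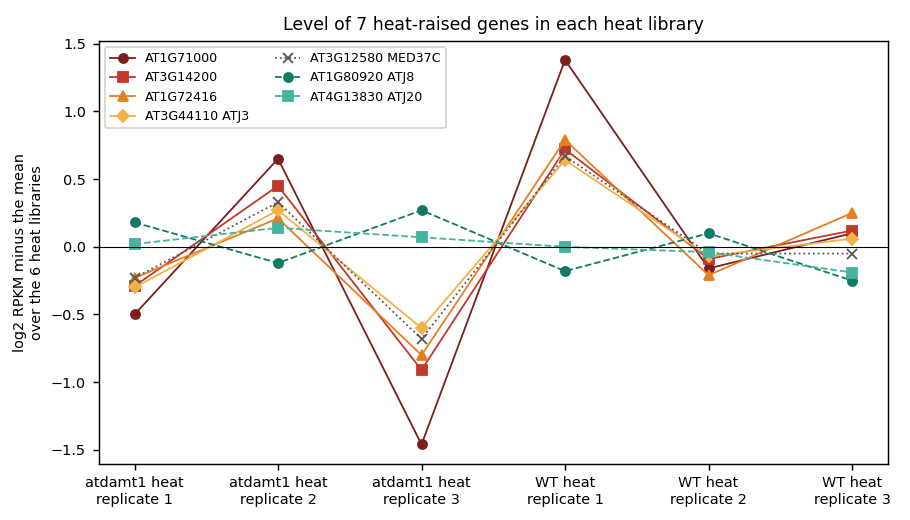
Log2 RPKM minus the mean over the 6 heat libraries on the vertical axis for 6 heat-raised members and the cytosolic HSP70 gene MED37C, by heat library of atdamt1 (left) and WT (right). AT1G71000, AT3G14200, AT1G72416, ATJ3 and MED37C are highest in WT replicate 1 and are lowest in atdamt1 replicate 3, while ATJ8 and ATJ20 stay within 0.27 of their means.

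The HSP70 proteins and exchange factors that J-domain proteins work with formed a list of 25 genes, 23 of them tested. In atdamt1, 8 rose and 9 fell (34.8% and 39.1%), and in WT 10 rose and 4 fell (43.5% and 17.4%), beside 10.3% and 56.2% of all genes in atdamt1 and 9.41% and 52.6% in WT. The median log2 change of the list was 0.27 in both, beside -0.44 and -0.41 for all genes. Under median-of-ratios scaling 12 rose and 3 fell in atdamt1, and 14 rose and 2 fell in WT. Under quantile normalization 10 rose and 4 fell in atdamt1, and 12 rose and 4 fell in WT. Of all genes, 22.7% to 28.7% rose and 26.5% to 29.4% fell under these 2 scalings. HSP70-5, MED37C and HSP70-8, of the cytosolic type, had the largest rises. MED37C had 988, 1457 and 722 RPKM in atdamt1 heat against 6.12, 10.4 and 8.93 RPKM in atdamt1 control, and 1843, 1113 and 1115 RPKM in WT heat against 9.65, 5.34 and 8.53 RPKM in WT control. Its log2 change was 6.77 ± 0.29 in atdamt1 (SE, adjusted p = 2.39e-08, limma) and 7.25 ± 0.29 in WT (adjusted p = 1.45e-08, limma). HSP70-5 rose by 7.31 and 7.80, and HSP70-8 by 6.25 and 6.93, in atdamt1 and WT. Of the 10 that rose in WT, 9 had the library order of AT1G71000, the exception being Fes1B. The order was not confined to genes that rose. MED37A, called lower in both genotypes, had it, while BIP, also called lower, did not. HSP70-7 and HSP70-14, whose mean RPKM was lower after heat in both genotypes, had it too, and were named after their values were seen. How many of the remaining list genes had it was not counted.

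BIP and MED37A, HSP70 genes of the endoplasmic reticulum, fell in both genotypes. BIP had 33, 54.5 and 25.9 RPKM in atdamt1 heat against 125, 142 and 114 RPKM in atdamt1 control, and 73.6, 36.5 and 56.1 RPKM in WT heat against 136, 151 and 122 RPKM in WT control. It fell by 1.78 ± 0.27 in atdamt1 (SE, log2, adjusted p = 0.00012, limma; 0.0806 with the chloroplast share in the model) and by 1.34 ± 0.27 in WT (adjusted p = 0.00101, limma). MED37A, a near-identical copy of BIP with which reads may be shared, fell by 1.48 ± 0.31 in atdamt1 (adjusted p = 0.00138, limma; 0.598 with the chloroplast share in the model) and by 1.03 ± 0.31 in WT (adjusted p = 0.0129, limma). The WT call of MED37A was lost under median-of-ratios scaling (adjusted p = 0.168) and without WT heat replicate 2 (-0.71, adjusted p = 0.0597). AT4G16660, placed in the large HSP70 class that releases nucleotide from HSP70, fell by 1.74 ± 0.15 in both genotypes (adjusted p = 1.93e-06 in atdamt1 and 2.04e-06 in WT, limma).

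At the edge of the expression filter, 61 of the 69 tested members had an RPKM of at least 1 in all 12 libraries and 8 did not. AT3G04980 and AT5G27240 reached 1 in 6 libraries each, all of them controls. Both names were chosen here after their values were seen. AT2G33735, AT5G16650 and Fes1B were likewise named after their values were seen. Of the 19 members not tested, 8 were listed at 0 in every library, the highest value was 1.43 RPKM, and none reached 1 RPKM in more than 1 library. The tested members had mean levels of 0.844 to 304 RPKM, with a median of 7.38 RPKM beside 7.6 RPKM for all genes tested.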

How the data were processed

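Expression was measured by sequencing of poly(A) RNA with the NEBNext Ultra II Directional kit, per the labels' protocols. The deposited table gives RPKM values made by the authors for 32833 rows in 12 libraries. The submitters' processing notes list STAR, DESeq2 and TAIR10, with no role or version. Neither the counter nor its strand setting is given in the sources used here. A change in RPKM is relative to the library total.

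The fit took genes that reached 1 RPKM in 3 or more libraries, on log2(RPKM + 1), so changes of low genes are understated. Limma 3.58.1 in R 4.3.3 fitted 1 mean per group over all 12 libraries with a mean-variance trend and 8 residual degrees of freedom, two-sided, for 5 contrasts: heat against control within atdamt1 and within WT, atdamt1 against WT within heat and within control, and the interaction. Adjusted p-values are Benjamini-Hochberg values over all genes tested, with a threshold of 0.05. The fit was tested on simulated reads.

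RPKM times the TAIR10.1 exon-union length gave whole reads (tolerance 0.1) in every library for 24374 of 24599 genes (99.1%), which gave the depths. Chi-square per degree of freedom between replicates was 12.4 to 43.6, so no pair was counted as 1 sample.

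The members and lists were chosen with earlier results of these data known. Named were up to 8 rises and 8 falls per heat contrast with a mean of at least 5 RPKM, the smallest p of each contrast without a call, the leading genes of each role list, all members of the endoplasmic reticulum, mitochondrial and cytosolic class A lists, up to 3 rises and falls of the HSP70 list, and the 3 members whose pattern was most like that of AT1G71000. Upstream windows were read from the TAIR10.1 genome with RefSeq gene starts, and repeated transcripts were searched at 90% identity over at least 100 bases. Alternatives were another pseudocount (0.1), filters, scalings, fits on only the libraries compared, no trend, a replicate block, the chloroplast-encoded share as a covariate, and leaving out each library. Tables were made with Python 3.11.15, numpy 2.4.6 and pandas 2.3.3, and figures with matplotlib 3.10.9.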

Additional observations from a re-analysis of the deposited data

How the results depend on the processing

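Of 1776 values of named genes under the alternatives, 1675 kept direction and call, 61 lost the call, 12 gained one and 28 changed sign. Fewer were kept under the scalings and the covariate. These were 60 of 85 under median-of-ratios scaling, 65 of 85 under quantile normalization and 68 of 85 with the chloroplast share in the model. Counts of members called that moved over 1.5-fold did so under scalings or the covariate: under median-of-ratios scaling 17 rose and 22 fell in atdamt1, and 18 rose and 22 fell in WT; under quantile normalization 15 rose and 22 fell in atdamt1, and 21 fell in WT; with the chloroplast share in the model 31 were called in atdamt1, 25 of them lower, as were 11 genes of the HSP70 list. Both scalings remove the fall of the median gene; the cause under the covariate was not tested. Between groups, libraries of the same replicate number had correlations of deviations of -0.425 to 0.527. Between atdamt1 control and WT control these were 0.211, 0.035 and 0.527 for replicates 1 to 3. Libraries of unlike number were not compared, so whether the numbers pair the samples was not tested. A replicate block gave 10 rises and 44 falls in atdamt1 and 10 rises and 41 falls in WT. It gave 0 calls in the other contrasts, and 1 named call was lost (ATJ39 in atdamt1, adjusted p = 0.0587, limma).

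Leaving out each library gave 47 to 55 members called in atdamt1 (7 to 10 higher, 40 to 46 lower) and 48 to 54 in WT (8 to 11 higher, 39 to 43 lower), 14 to 18 and 11 to 15 genes of the HSP70 list, and 0 to 0 for the genotype contrasts and the difference between heat responses. Without a filter, 80 members entered, with 9 rises and 46 falls in atdamt1 and 12 rises and 44 falls in WT.

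Under median-of-ratios scaling and quantile normalization, in that order, AT1G65280 in atdamt1 became 0.12 and 0.09, AT5G17840 in WT 0.34 and 0.11, ATJ39 (AT1G59980) in WT 0.08 and 0.25, ATJ1 (AT1G28210) in WT 0.19 and 0.35, AT4G28480 in atdamt1 0.44 and 0.27, and AT5G01390 in atdamt1 0.35 and 0.38. ATJ39 in atdamt1 was 0.03 under quantile normalization and AT3G47650 in WT 0.21 under median-of-ratios scaling. With the covariate AT1G30280 was -0.21 in atdamt1 and -0.10 in WT, AT4G28480 0.49 and AT5G01390 0.13 in atdamt1. Leaving out each library gave AT1G30280 in WT -0.19 to 0.37, AT4G28480 -0.23 to 0.01 in atdamt1 and -0.06 to 0.34 in WT, AT5G01390 in WT -0.09 to 0.13, and GRV2 (AT2G26890) in WT -0.08 to 0.06.

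Among members near 1 RPKM, AT3G06778 rested on 13 to 61 reads per library and the longer AT3G04980 on 24 to 135. AT3G06778 was named here after its values were seen.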
